A study of Mus musculus with 6 samples.

Results

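The 41 genes described here encode proteins of the centromere, the kinetochore and the spindle checkpoint, with the mitotic kinases Aurka, Aurkb and Plk1. They were chosen by name, as the entries of the deposited count table that carry their symbols, and all 41 were found among the 40481 genes measured. All 41 also passed the filter on low counts and were tested with 14778 genes in all. They were compared in bone marrow-derived macrophages (BMDMs), primary cells grown from mouse marrow, as poly(A)-selected RNA sequencing libraries from 3 wild-type and 3 Scd2-m/-m samples. Scd2 encodes a stearoyl-CoA desaturase, which puts a double bond into saturated fatty acids. The Scd2-m/-m mice carry floxed Scd2 alleles and a lysozyme M-Cre transgene, which acts in the myelomonocyte lineage and, within a culture, only in cells that have turned on lysozyme M. The sources used here do not say whether the wild-type mice carried the floxed alleles or the Cre. The study used mice of both sexes, aged 2 to 5 months, and the age, sex and number of animals behind each library are not given. Xist was read in all 6 libraries, and the Y-linked genes Ddx3y, Eif2s3y and Kdm5d were at 0 in all 6, while a further one, Uty, had 6, 0 and 5 counts in the wild-type libraries and 0 in the Scd2-m/-m libraries. Marrow cells of both genotypes were differentiated for 5 to 6 days in medium with 10% CMG-conditioned medium, renewed on day 3, and then kept in 2% CMG-conditioned medium. No stimulus is named for these libraries, so that both groups shared every agent named and differed by genotype. Nothing in the labels says that the samples of a group came from separate animals or cultures, so p-values measure the spread between these libraries, which may be technical.

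The kinetochore is the protein structure that joins each chromosome to the spindle. Its inner layer, the constitutive centromere-associated network (CCAN), sits through the cell cycle on nucleosomes that hold the histone H3 variant CENP-A. Its outer layer assembles for mitosis and holds the KNL1-MIS12-NDC80 network that grips microtubules. Unattached kinetochores keep the spindle checkpoint active through the kinases TTK and BUB1 and the proteins BUBR1, BUB3, MAD1 and MAD2, and the chromosomal passenger complex with Aurora B corrects faulty attachments. Many outer-kinetochore and checkpoint genes are transcribed in G2 and mitosis and are low in resting cells, while macrophage cultures hold both dividing and resting cells. Following this biology, the members were divided into 12 constitutive centromere genes (Cenpb, Cenpc1, Cenph, Cenpi, Cenpk, Cenpl, Cenpm, Cenpn, Cenpo, Cenpp, Cenpq and Cenpt), 16 G2/M-periodic genes (Cenpe, Cenpf, Ndc80, Nuf2, Spc25, Ska1, Ska3, Bub1, Bub1b, Mad2l1, Ttk, Cdca8, Birc5, Aurka, Aurkb and Plk1) and 13 others. The first name refers to where the proteins sit, not to how steady their transcripts are. Earlier results of these data were known when the classes were drawn up. Cenpa was put in neither class, since its protein stays on the centromere while its transcript is periodic.

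Promoters of G2/M genes are known for a short element, the cell cycle genes homology region (CHR), with the letters TTTGAA, often beside CCAAT boxes. To show how the classes differ in sequence, the CHR letters were searched on both strands in RefSeq windows (GRCm38.p6) that run from 250 bases before to 50 bases after each start site, where the first transcribed base is position 1 and the base before it is -1. Windows were found for 35 of the 41 genes; Zwilch, Ska1, Spc24, Incenp, Aurkb and Nsl1 had no entry. The CHR letters were in the window of 9 of 14 G2/M-periodic genes (64.3%), 2 of 12 constitutive centromere genes (16.7%), 4 of 9 others (44.4%) and 3230 of 17492 protein-coding genes (18.5%). In the 50 bases after the start site they were found in 8 of 14 G2/M-periodic genes (57.1%), in 0 of 12 constitutive centromere genes, in 1 of 9 others (Cenpa) and in 2.08% of protein-coding genes. These counts rest on RefSeq's start sites. Counted from the start of the GENCODE gene, the same sites lay in the first 50 bases of 7 of 14 G2/M-periodic genes, 1 of 12 constitutive centromere genes (Cenpn, position 2) and 0 of 9 others. Aurka's then lay at position -3 and Cenpa's at position 126, and 1 of the 8 G2/M-periodic genes has its RefSeq start 2394 bases inside its GENCODE gene. These shares are a description of letters and were not tested.

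Of the 9 G2/M-periodic genes with the letters, 8 are shown with 30 bases each on the gene's own strand, 5′ to 3′, with the CHR letters in capitals (TTCAAA where the element lies on the other strand), from the gene with the largest fold change to the smallest. They lie at chr1:189688067-189688096 (Cenpf, position 3), chr7:122159453-122159482 (Plk1, position 31), chr9:83834684-83834713 (Ttk, position 8), chr14:57826160-57826189 (Ska3, position -14), chr2:69206172-69206201 (Spc25, position 25), chr2:118598231-118598260 (Bub1b, position 41), chr17:71526811-71526840 (Ndc80, position 30) and chr2:172370521-172370550 (Aurka, position 33). Cenpf, Ska3, Spc25, Ndc80 and Aurka are on the minus strand and Plk1, Ttk and Bub1b on the plus strand.
Cenpf: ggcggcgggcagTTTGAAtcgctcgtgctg
Plk1: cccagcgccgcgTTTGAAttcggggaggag
Ttk: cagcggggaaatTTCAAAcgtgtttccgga
Ska3: gcctgcgcaggaTTCAAAtgtgtagcgcgt
Spc25: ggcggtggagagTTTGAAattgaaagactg
Bub1b: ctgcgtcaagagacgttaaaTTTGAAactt
Ndc80: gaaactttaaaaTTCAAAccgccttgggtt
Aurka: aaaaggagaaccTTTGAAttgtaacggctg

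For contrast, the sites of both constitutive centromere genes that hold the letters, and that of Cenpa, follow. By RefSeq's starts, those of Cenpn (chr8:116921719-116921748, position -9) and Cenpl (chr1:161070593-161070622, position -162) lie before the start site, and that of Cenpa (chr5:30666890-30666919, position 17) lies after it, all 3 on the plus strand.
Cenpn: gccattggcggcTTCAAAagcacctcggcg
Cenpl: acagctctgaggTTCAAAcccagacacaaa
Cenpa: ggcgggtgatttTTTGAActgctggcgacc

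**Figure D1:**
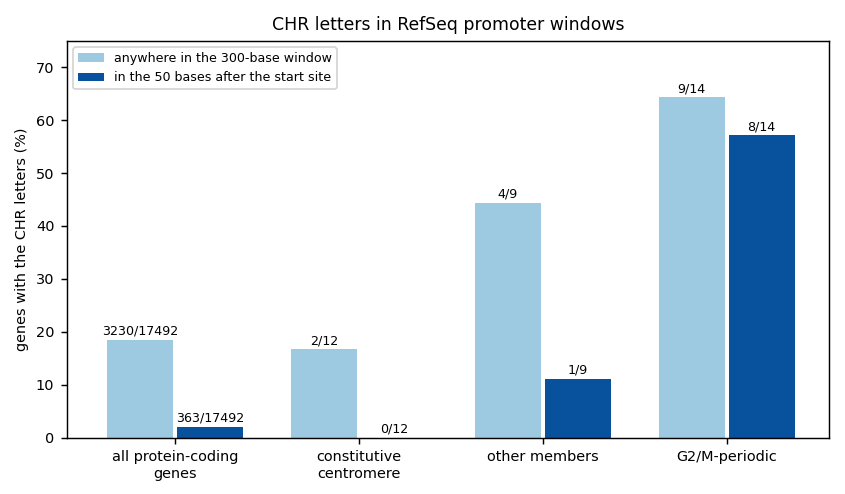
Share of genes (%) whose RefSeq window holds the CHR letters TTTGAA on either strand, anywhere in the 300-base window (light bars) or in the 50 bases after the start site (dark bars), for all protein-coding genes and the 3 classes; the counts stand over the bars. After the RefSeq start site the letters were in 8 of 14 G2/M-periodic genes and 0 of 12 constitutive centromere genes, and by GENCODE starts the same sites were in 7 and 1.

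The 250 bases before the start are printed for both members with the largest fold change, Cenpf (chr1:189688087-189688336, minus strand) and Plk1 (chr7:122159185-122159434, plus strand), and for Cenpb (chr2:131180068-131180317, minus strand), a constitutive centromere gene of small fold change. CCAAT boxes are in capitals in Cenpf (positions -132 and -71) and Plk1 (position -14), and in Cenpb an E2F element in the reverse letters TTTCCCGC (position -141).
Cenpf: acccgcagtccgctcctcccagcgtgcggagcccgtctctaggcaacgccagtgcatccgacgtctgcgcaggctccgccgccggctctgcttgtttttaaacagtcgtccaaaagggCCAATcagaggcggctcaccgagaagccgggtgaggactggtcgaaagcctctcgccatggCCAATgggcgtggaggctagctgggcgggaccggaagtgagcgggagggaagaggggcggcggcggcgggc
Plk1: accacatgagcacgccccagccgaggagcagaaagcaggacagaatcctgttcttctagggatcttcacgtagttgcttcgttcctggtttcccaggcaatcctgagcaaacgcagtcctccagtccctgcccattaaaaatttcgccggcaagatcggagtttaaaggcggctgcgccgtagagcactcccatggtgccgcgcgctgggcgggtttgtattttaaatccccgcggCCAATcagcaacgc
Cenpb: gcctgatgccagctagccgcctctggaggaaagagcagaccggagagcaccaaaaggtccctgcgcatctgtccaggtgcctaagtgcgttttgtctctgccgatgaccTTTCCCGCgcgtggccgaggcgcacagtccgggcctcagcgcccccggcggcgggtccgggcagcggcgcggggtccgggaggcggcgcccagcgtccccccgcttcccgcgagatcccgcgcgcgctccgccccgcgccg

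CCAAT boxes did not separate the classes. They were in 9 of 14 G2/M-periodic windows (64.3%), 8 of 12 constitutive ones (66.7%) and 42.3% of those of protein-coding genes. An E2F element, with the letters GCGGGAAA or GCGCCAAA on either strand, was in 0 of 14 G2/M-periodic windows, 3 of 12 constitutive ones (25%) and 2.31% of those of protein-coding genes. None of these letter strings contains another, and a match in letters is not evidence of a bound site.

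The libraries held between 46285176 and 57629638 counts on genes. Scd2 itself was at 66.9, 77.8 and 62.7 counts per 1e6 counts (CPM) in the wild-type libraries and at 59.5, 38 and 39.8 CPM in the Scd2-m/-m libraries, so that no library overlapped the other group but Scd2-m/-m replicate 1 lay close to it. Its log2 fold change was -0.59 (SE 0.19) with an FDR of 0.10 by edgeR's quasi-likelihood test, where FDR is the Benjamini-Hochberg adjusted p over all genes tested. Without Scd2-m/-m replicate 1 it was -0.83 with an FDR of 8.87e-05 by the same test. Of 8 macrophage markers, 1 rose and 4 fell, and their summed level went from 37500 to 38400 CPM in wild-type libraries to 21400 to 22000 CPM in Scd2-m/-m libraries. In wild-type libraries most of that sum was Lyz2, the gene into which the Cre is inserted, whose mean fell from 22800 to 9030 CPM. Of 10 neutrophil markers 8 were tested and 5 rose, with a sum of 22.3 to 26.0 CPM against 33.7 to 43.9 CPM, while Ly6g was at 0 counts in every wild-type library. Of 8 progenitor markers 6 were tested and 1 rose (summed level 7.71 to 8.78 against 8.42 to 9.43 CPM), and of 6 dendritic cell markers 5 were tested and 2 rose (0.947 to 1.48 against 1.83 to 2.99 CPM). Of 8 B cell markers 4 were tested and 2 rose (54.2 to 120 against 83.7 to 116 CPM). Of the erythroid, T and NK cell, mast cell and basophil, and stromal markers, 3, 1, 1 and 4 were tested and 0 rose, Ncr1 and Cma1 were at 0 throughout, and 1 megakaryocyte marker fell. The part of other cells in the results that follow was not tested.

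In Scd2-m/-m macrophages 27 of the 41 genes rose and 0 fell (edgeR's quasi-likelihood test, FDR below 0.05). Over all genes tested 17.5% passed this threshold, 9.65% higher and 7.84% lower. The median log2 fold change of the 41 was 1.17, beside 0.00387 over all genes tested. In all, 7 genes passed both thresholds of the study, which add a log2 fold change of more than 2 in size: Cenpf, Plk1, Cenpm, Ska1, Birc5, Ttk and Spc24. Over all genes 0.629% did so in the higher direction. Of these 7 genes, Cenpf, Cenpm, Ska1, Ttk and Spc24 had fewer than 10 counts in at least 1 wild-type library. They passed the filter on low counts only with the Scd2-m/-m libraries, where they were high. So did Cenpp, at 14, 8 and 14 wild-type counts, which also rose. The counts of 7 and of 27 therefore cannot be weighed against the shares over all genes. With at least 10 counts required in every library, Cenpf, Cenpm, Ska1, Ttk, Spc24 and Cenpp were not tested. Of the 35 members left 21 were called, beside 2501 of all 13530 genes then tested. In 31 members every Scd2-m/-m library lay above every wild-type library, as in 17.9% of all genes. These 31 include the genes that passed the filter only with the Scd2-m/-m libraries. In 4 members, Mis12, Mad1l1, Cenpb and Bub3, every Scd2-m/-m library lay below every wild-type library, as in 17.0% of all genes, and none of these 4 passed the test. With limma-voom and sample quality weights, however, all 4 and Cenpt fell, with log2 fold changes of -0.21 (Mis12), -0.25 (Mad1l1), -0.15 (Cenpb), -0.17 (Bub3) and -0.29 (Cenpt), among 35 members called. That setting called far more genes in general, 4507 of 14778, against 2585 in the main test. In bulk RNA, more cells in mitosis and more transcript in each such cell cannot be told apart. The number of members called was 24 without wild-type replicate 2, the lowest of the 6 counts with 1 library left out, and 27 without Scd2-m/-m replicate 1.

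**Figure D2:**
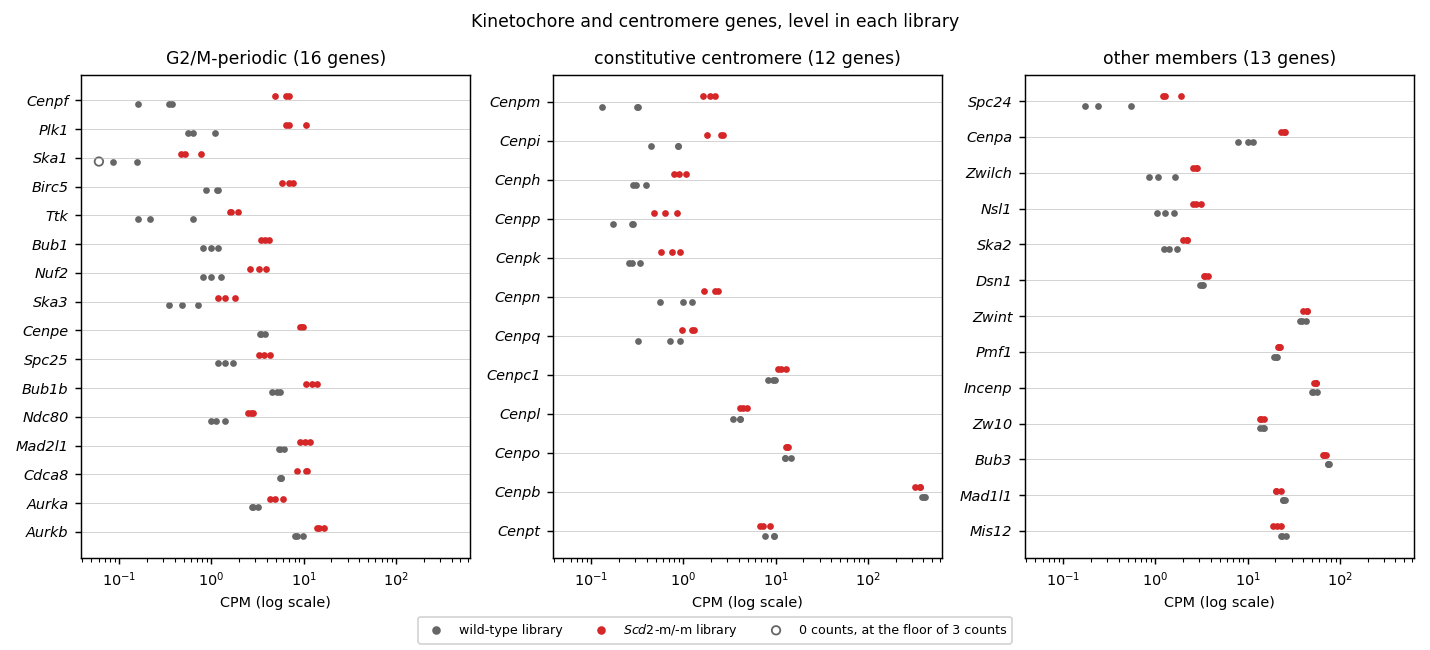
Level in CPM (log scale) of each of the 41 genes in the 3 wild-type (grey) and 3 Scd2-m/-m (red) libraries, by class and ordered by fold change; the open circle is a library with 0 counts drawn at the floor of 3 counts. The red points lay right of all grey points in 16 of 16 G2/M-periodic genes, in 8 of 12 constitutive centromere genes and in 7 of 13 others.

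The classes differed in how many of their genes were called. All 16 G2/M-periodic genes rose, with log2 fold changes from 0.76 (Aurkb) to 4.36 (Cenpf) and a median of 1.46. Of the 12 constitutive centromere genes 7 rose and 5 did not pass the test, with log2 fold changes from -0.23 (Cenpt) to 2.88 (Cenpm) and a median of 1.01. Of the 13 others 4 rose (Cenpa, Spc24, Nsl1 and Zwilch), with a median of 0.119. Over all genes tested 9.65% rose. Cenpf, Ska1, Ttk, Cenpm, Cenpp and Spc24, however, passed the filter on low counts only with the Scd2-m/-m libraries. The difference between the classes was not itself tested, since genes of a class are not replicates and earlier results were known when the classes were drawn up. Left out of the G2/M-periodic class were Incenp, which was not called (log2 fold change 0.0451), and Spc24 and Cenpa, which rose. The summed level of the G2/M-periodic genes was 38.1, 38.2 and 41.7 CPM in wild-type and 109, 102 and 89.7 CPM in Scd2-m/-m libraries, or 2.55-fold. That of the constitutive centromere genes, most of which was Cenpb, was 428 to 452 CPM against 372 to 416 CPM.

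At the centromere itself, Cenpa, the histone H3 variant that marks the site, was at 7.92, 10.2 and 11.4 CPM in wild-type and at 23.1, 24.9 and 25.4 CPM in Scd2-m/-m libraries. It rose by 1.31 on the log2 scale (SE 0.11, FDR 3.77e-06 by edgeR's quasi-likelihood test), and the groups were far apart. Cenpb, which binds a motif in centromeric satellite DNA and is encoded at chr2:131175182-131180067, was at 404, 390 and 413 CPM in wild-type and at 369, 363 and 324 CPM in Scd2-m/-m libraries. Its log2 fold change was -0.19 (SE 0.07, FDR 0.0571 by edgeR's quasi-likelihood test), and it was called lower with DESeq2 (-0.20), with no filter on low counts (-0.19) and without Scd2-m/-m replicate 1 (-0.23). Per length, it stood at 82.4 ± 2.40 FPKM, which is CPM per kilobase of exonic length (SD, n = 3), in wild-type macrophages, against 1.68 ± 0.299 FPKM for Cenpa. Cenpc1, which bridges CENP-A nucleosomes to the outer kinetochore, was at 9.77, 9.48 and 8.28 CPM against 11.3, 10.6 and 13.1 CPM. Its log2 fold change of 0.35 (SE 0.11) passed narrowly, with an FDR of 0.0377 by the same test. That call held only without wild-type replicate 1 among the 6 fits with 1 library left out; the values were 0.37 without wild-type replicate 2, 0.28 without wild-type replicate 3, and 0.37, 0.41 and 0.26 without Scd2-m/-m replicates 1, 2 and 3, none of which passed.

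The CCAN is built of subcomplexes, and its genes are grouped by them here, an arrangement made after the values were seen. All 4 genes of CENP-H/I/K/M, the subcomplex between CENP-C and the rest of the network, rose, with log2 fold changes from 1.35 to 2.88. Cenpm, the largest, was at 0.322, 0.130 and 0.315 CPM in wild-type and at 2.22, 1.93 and 1.62 CPM in Scd2-m/-m libraries, an increase of 2.88 on the log2 scale (SE 0.31, FDR 2.90e-05 by edgeR's quasi-likelihood test). These rest on 16, 6 and 16 counts against 124, 97 and 94 counts, with every Scd2-m/-m library well above the wild-type ones. Cenpi was at 0.443, 0.867 and 0.885 CPM against 1.79, 2.67 and 2.58 CPM (log2 fold change 1.68, SE 0.27). Cenph was at 0.282, 0.304 and 0.393 CPM against 1.06, 0.895 and 0.791 CPM (log2 fold change 1.48, SE 0.32). Cenpk was at 0.342, 0.260 and 0.275 CPM against 0.753, 0.577 and 0.912 CPM (log2 fold change 1.35, SE 0.35, FDR 0.0155 by the same test). The groups of all 4 genes were separate, but the call of Cenpk was lost without wild-type replicate 2 (1.27) and without Scd2-m/-m replicate 3 (1.18).

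The other CCAN subcomplexes were mixed. Cenpn, which reads the CENP-A nucleosome, was at 0.564, 1.24 and 1.00 CPM in wild-type and at 1.68, 2.23 and 2.39 CPM in Scd2-m/-m libraries, and rose by 1.17 (SE 0.27, FDR 0.00811 by edgeR's quasi-likelihood test), while its partner Cenpl had a log2 fold change of 0.20 (SE 0.14) and overlapping groups. Cenpp was at 0.282, 0.173 and 0.275 CPM against 0.860, 0.637 and 0.482 CPM and rose by 1.42 (SE 0.39, FDR 0.0208 by the same test). That call was lost without wild-type replicate 2 (1.23) and without Scd2-m/-m replicates 1 (1.18) and 2 (1.44), and 12.3% of Cenpp's exonic bases also lie in exons of Ippk on the opposite strand. Cenpo, from the same subcomplex, was at 12.7, 12.6 and 14.7 CPM against 13.2, 12.8 and 13.5 CPM, the smallest change of all 41 genes, at -0.0214 (SE 0.09), with groups that overlapped. Exons of Adcy3 on the opposite strand share 19% of Cenpo's exonic bases, and the use of strand in counting is not given. Cenpq (0.84, SE 0.33, FDR 0.0967 by edgeR's quasi-likelihood test) and Cenpt (-0.23, SE 0.12), which binds DNA and recruits the NDC80 complex directly, did not pass.

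In the outer kinetochore the NDC80 complex and the MIS12 complex, which bind each other, differed. All 4 genes of the NDC80 complex, the main microtubule coupler, rose, with log2 fold changes from 1.17 to 2.16. Spc24, in the part that docks to the inner kinetochore, was at 0.242, 0.173 and 0.551 CPM in wild-type and at 1.88, 1.21 and 1.27 CPM in Scd2-m/-m libraries (log2 fold change 2.16, SE 0.37, FDR 0.00121 by edgeR's quasi-likelihood test). Ndc80, in the microtubule-binding part, was at 1.13, 0.997 and 1.42 CPM against 2.49, 2.81 and 2.72 CPM (1.17, SE 0.19, FDR 0.000859 by the same test). Nuf2 (1.68) and Spc25 (1.38) lay between them, and in all 4 genes the groups were separate. Of the 4 genes of the MIS12 complex only Nsl1 rose, from 1.27, 1.04 and 1.61 CPM to 3.14, 2.57 and 2.75 CPM (1.10, SE 0.20, FDR 0.00172 by the same test). Pmf1 was at 20.7, 20.3 and 19.2 CPM against 22.6, 21.7 and 21.1 CPM, separate groups but a log2 fold change of only 0.12 (SE 0.07) that did not pass. Dsn1 (0.16, SE 0.14) and Mis12 (-0.23, SE 0.08, FDR 0.0865 by the same test) did not pass either, nor did Zwint, the KNL1 partner (0.12, SE 0.07). Mis12 fell past the threshold without Scd2-m/-m replicate 3 (-0.30). Per length, wild-type macrophages held 0.182 ± 0.0330 FPKM of Ndc80 and 8.10 ± 0.576 FPKM of Mis12 (SD, n = 3), and Scd2-m/-m macrophages 0.411 ± 0.0250 and 6.93 ± 0.675 FPKM.

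**Figure D3:**
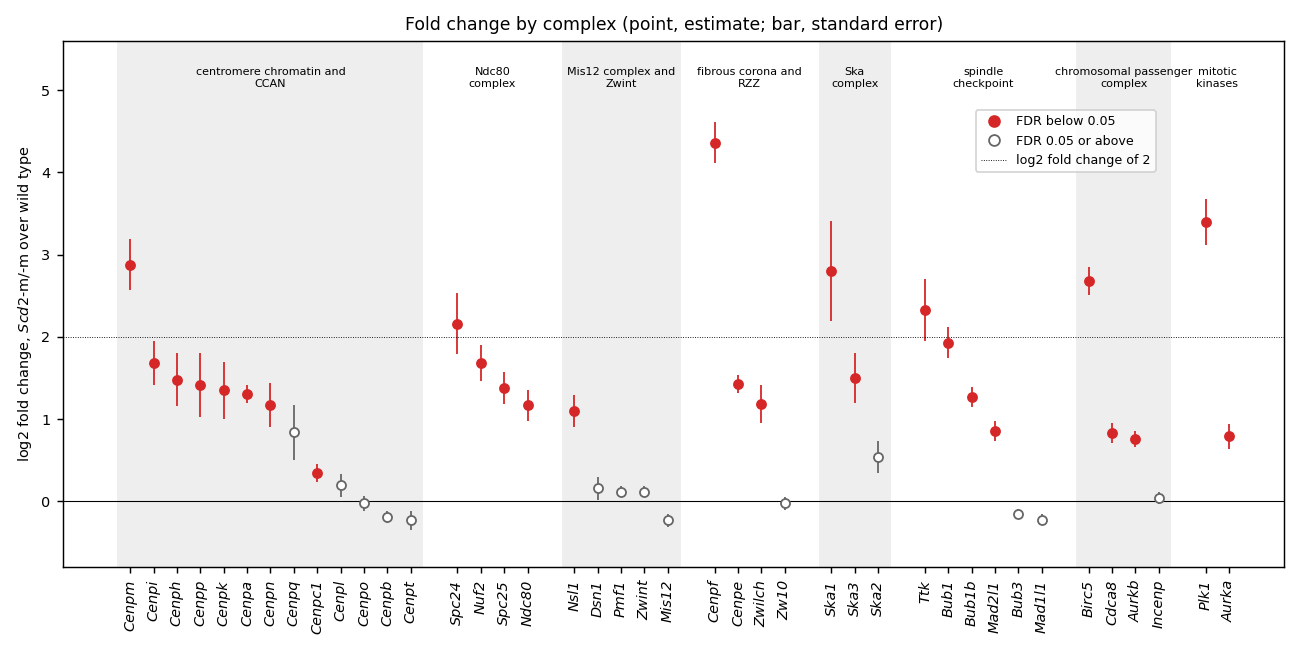
Log2 fold change (Scd2-m/-m over wild-type) of each member, grouped by complex, with its standard error as a bar; filled points passed an FDR of 0.05 in edgeR's quasi-likelihood test and open points did not. The 4 NDC80 complex genes lay between 1.17 and 2.16, while Mis12, Dsn1, Pmf1, Zwint, Zw10, Bub3, Mad1l1 and Incenp lay between -0.23 and 0.16.

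The fibrous corona held the largest change of the set. Cenpf (chr1:189640606-189688086), a large coiled-coil protein that gathers in G2 and binds microtubules and dynein regulators, was at 0.161, 0.347 and 0.374 CPM in wild-type and at 6.93, 6.43 and 4.92 CPM in Scd2-m/-m libraries. The counts were 8, 16 and 19 against 387, 323 and 286, and the groups were more than an order of magnitude apart in level. The log2 fold change was 4.36 (SE 0.25, FDR 1.02e-07 by edgeR's quasi-likelihood test), a ratio of the group means of 20.7. Cenpe, the kinesin motor that carries chromosomes to the spindle equator, rose by 1.43 (SE 0.11), from a mean of 3.53 ± 0.207 to 9.51 ± 0.397 CPM (SD, n = 3). Zwilch rose by 1.18 (SE 0.23), whereas its partner Zw10 was at 13.8, 14.9 and 14.8 CPM against 13.7, 15 and 14.1 CPM (-0.0228, SE 0.08), with groups that overlapped throughout. ZW10 also works in membrane traffic between the Golgi and the endoplasmic reticulum outside mitosis. Kntc1, the gene of their Rod subunit and not a member, rose by 2.40 (SE 0.26).

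Of the Ska complex, which helps NDC80 follow depolymerizing microtubules, Ska1 (chr18:74195299-74207818) was counted 0, 4 and 8 times in wild-type and 26, 39 and 30 times in Scd2-m/-m libraries. The wild-type library at 0 counts had a floor of 0.0604 CPM, the level of 3 counts, and the Scd2-m/-m libraries were at 0.466, 0.776 and 0.516 CPM. Every Scd2-m/-m library was thus above every wild-type one, and the fitted log2 fold change of 2.80 (SE 0.61, FDR 0.00581 by edgeR's quasi-likelihood test) depends on the prior count. Ska3 rose by 1.5 (SE 0.30). Ska2 was at 1.25, 1.41 and 1.73 CPM against 2.22, 2.19 and 1.98 CPM, separate groups with a log2 fold change of 0.54 (SE 0.19, FDR 0.0742 by the same test) that did not pass.

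Of the 6 spindle checkpoint genes 4 rose and 2 did not pass. Ttk, the kinase that starts checkpoint signaling, rose most, from 0.161, 0.217 and 0.630 CPM in wild-type to 1.58, 1.93 and 1.65 CPM in Scd2-m/-m libraries (log2 fold change 2.33, SE 0.38, FDR 0.000840 by edgeR's quasi-likelihood test). Wild-type replicate 3 was highest of its group but still below every Scd2-m/-m library. Bub1, the kinase that marks centromeric histone H2A, rose by 1.93 (SE 0.19), Bub1b, which encodes the checkpoint effector BUBR1, by 1.27 (SE 0.12), and Mad2l1, which encodes MAD2, by 0.86 (SE 0.12). Their partners among the members, Bub3 and Mad1l1, did not rise. Of genes that are not members, Knl1 (log2 fold change 2.71) and Cdc20 (1.48) rose, while Trip13 (0.21) and Mad2l1bp (-0.00231) did not pass. Bub3, which brings BUB1 and BUBR1 to KNL1, was at 77, 74.3 and 73.8 CPM against 71.1, 65.7 and 66.5 CPM, each Scd2-m/-m library below each wild-type one (-0.15, SE 0.06, FDR 0.109 by the same test). Mad1l1, which encodes the MAD1 platform for MAD2, had a log2 fold change of -0.22 (SE 0.07, FDR 0.0536 by the same test), and fell past the threshold without Scd2-m/-m replicate 1 (-0.29), with RLE factors (-0.23) and with quality weights (-0.25).

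In the chromosomal passenger complex 3 of 4 genes rose. Birc5 (chr11:117849251-117855743), which encodes survivin, the subunit that binds phosphorylated histone H3, was at 1.15, 1.17 and 0.866 CPM in wild-type and at 7.72, 6.88 and 5.87 CPM in Scd2-m/-m libraries. It rose by 2.68 on the log2 scale (SE 0.17, FDR 2.91e-07 by edgeR's quasi-likelihood test). Incenp, the scaffold that activates Aurora B, was at 49.4, 51.6 and 56.6 CPM against 53.1, 54.9 and 54.6 CPM, with overlapping groups (0.0451, SE 0.07). Cdca8, which encodes borealin, rose by 0.83 (SE 0.12) and Aurkb by 0.76 (SE 0.10). Per length, Incenp was at 12.1 ± 0.851 FPKM in wild-type macrophages and Birc5 at 0.312 ± 0.050 FPKM, against 12.5 ± 0.220 and 2.01 ± 0.273 FPKM in Scd2-m/-m macrophages (SD, n = 3).

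Both other mitotic kinases rose. Plk1 (chr7:122159439-122169873), the Polo-like kinase of mitotic entry and kinetochore attachment, was at 1.09, 0.629 and 0.551 CPM in wild-type and at 10.7, 6.98 and 6.38 CPM in Scd2-m/-m libraries. The log2 fold change was 3.40 (SE 0.28, FDR 1.71e-05 by edgeR's quasi-likelihood test), with Scd2-m/-m replicate 1 highest and the groups far apart. Aurka, the kinase of spindle poles, was at 3.18, 2.78 and 2.83 CPM against 5.90, 4.91 and 4.37 CPM, a smaller increase of 0.79 (SE 0.15, FDR 0.00241 by the same test).

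Ratios between transcripts whose proteins work together were taken within each library, so that they do not depend on library scaling. The pairs were chosen after the values were seen, and the ratios are given with no test, since an exact permutation test of 3 against 3 libraries cannot go below 0.1. Birc5 was 0.0232, 0.0227 and 0.0153 of Incenp in CPM in wild-type and 0.145, 0.125 and 0.107 in Scd2-m/-m libraries, a ratio 6.18-fold higher. Bub1 relative to Bub3 was 4.24-fold higher, Bub1b relative to Bub3 2.67-fold and Mad2l1 relative to Mad1l1 2.12-fold. Cenpm relative to Cenpt was 8.61-fold higher, Plk1 relative to Aurka 6.16-fold, Nuf2 relative to Mis12 3.79-fold and Cenpe relative to Zw10 2.74-fold. In all 11 pairs the 3 Scd2-m/-m ratios lay above the 3 wild-type ratios. Each pair sets the gene with the larger fold change over the other, so this direction follows from the choice and restates the single-gene changes. The summed G2/M-periodic level went from 0.0891 ± 0.00312 to 0.251 ± 0.0108 of the summed constitutive level (SD, n = 3), and without Cenpb from 1.01 ± 0.0569 to 2.15 ± 0.243.

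**Figure D4:**
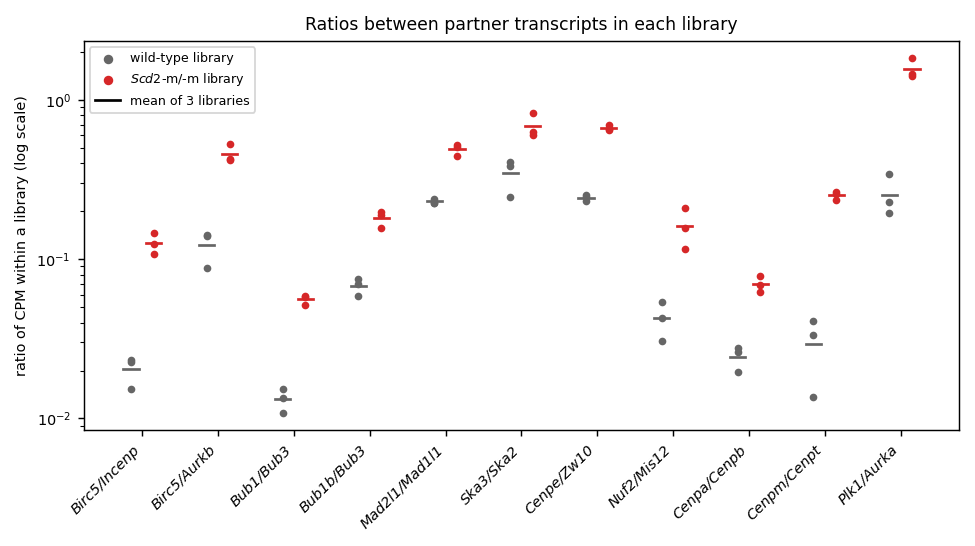
Ratio of CPM (log scale) between 2 partner transcripts within each wild-type (grey) and Scd2-m/-m (red) library, with the mean of 3 libraries as a line. Each pair's Scd2-m/-m ratios lay above its wild-type ratios, by 1.97-fold (Ska3/Ska2) to 8.61-fold (Cenpm/Cenpt). The pairs were chosen after the values were seen, with the larger fold change on top, so this direction follows from the choice.

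Across the 41 genes the change went with the wild-type level in CPM, which sets how many counts a gene has. None of the 9 genes at or above a wild-type mean of 10 CPM rose, whereas 27 of the 32 below it did. Over all genes tested the share called higher was 9.14% at or above 10 CPM and 10.3% below it. Among the 27 were Cenpf, Cenpm, Ska1, Ttk, Spc24 and Cenpp. They passed the filter on low counts only with the Scd2-m/-m libraries, so 27 of 32 cannot be weighed against 10.3%. The limit of 10 CPM was chosen after the values were seen. The 9 genes were Cenpb, Bub3, Incenp, Zwint, Mad1l1, Mis12, Pmf1, Zw10 and Cenpo, none of them in the G2/M-periodic class. Incenp had been left out of that class with earlier results known, and with Incenp in it this would not hold. Between the log2 level and the log2 fold change Pearson's r was -0.774 and Spearman's rho -0.845 across the 41 genes, a description only, since both axes share the wild-type libraries and genes are not independent replicates. Among the constitutive centromere genes the order was not strict. Cenpm and Cenpi, below 1 CPM in wild-type, rose, and Cenpb and Cenpo did not, but Cenpq, also below 1 CPM, did not pass. Cenpc1, at a wild-type mean of 9.18 CPM, rose, while Cenpl (3.88 CPM) and Cenpt (8.95 CPM) did not pass.

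**Figure D5:**
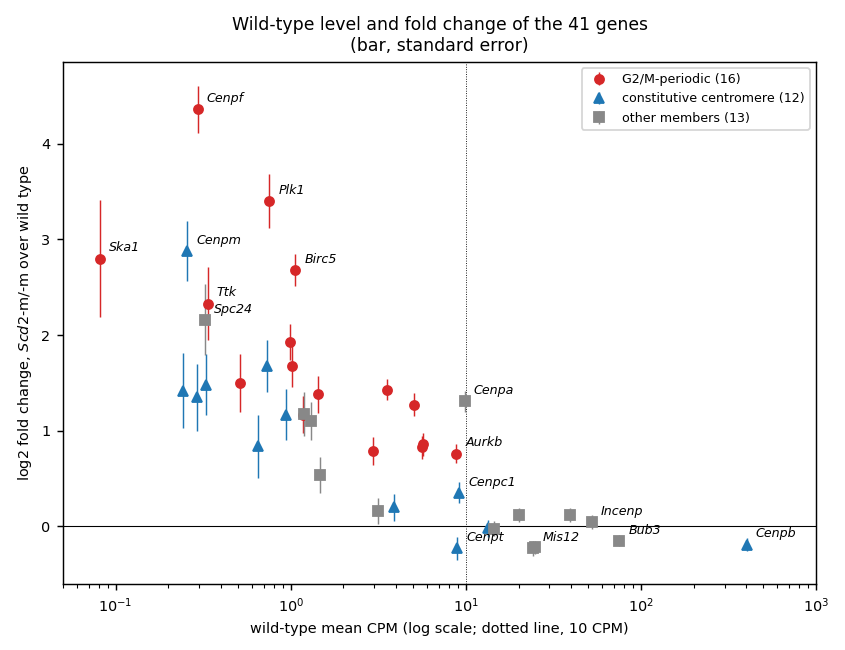
Wild-type mean level in CPM (log scale) against the log2 fold change with its standard error, for 16 G2/M-periodic genes (red circles), 12 constitutive centromere genes (blue triangles) and 13 others (grey squares). Right of the dotted line at 10 CPM, 0 of 9 genes passed the test, and left of it 27 of 32 rose. The 27 include Cenpf, Cenpm, Ska1, Ttk, Spc24 and Cenpp, which passed the filter on low counts only with the Scd2-m/-m libraries.

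Of 27 further kinetochore and centromere genes that are not members, 25 were tested, 12 rose and 1 fell, with a median log2 fold change of 0.483. The 5 with the smallest p-values were Spag5 (astrin, 2.35), Spdl1 (spindly, the dynein adaptor, 1.13), Knl1 (the checkpoint scaffold, 2.71), Knstrn (the astrin partner, 1.39) and Kif2c (the microtubule depolymerase MCAK, 2.98), given as log2 fold changes. The gene that fell was Nde1, a dynein regulator, at 47.6, 48.7 and 46.2 CPM in wild-type and 39.7, 39.0 and 41.6 CPM in Scd2-m/-m libraries (-0.24, SE 0.06, FDR 0.0136 by edgeR's quasi-likelihood test). Among genes of CENP-A loading, Oip5 (1.52, SE 0.37) rose, while Hjurp, the CENP-A chaperone (-0.0555, SE 0.06), and Mis18a (0.20, SE 0.10) did not pass. In the CENP-T/W/S/X group 0 of 4 genes passed, Cenpt among them. Outside the kinetochore, 21 of 23 other G2/M genes rose with a median of 1.82, and 14 of 28 S phase genes with a median of 0.398. Over all genes tested 9.65% rose and 7.84% fell. The G2/M gene lists and the S phase list were compared with the members only by these counts.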

How the data were processed

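Each of the 6 BMDM samples (3 wild-type, 3 Scd2-m/-m) was sequenced as 1 poly(A)-selected library, and the labels map all 6 to a genotype. Per the study's methods, reads were aligned with STAR to the Ensembl release 76 primary assembly. The deposited values are raw counts, whole numbers for each gene. No counting tool, version or use of strand is named in the sources used here. Counts from 1 to 20 were even in 60.9% to 64.9% of cases, so what 1 count stands for is unknown. The authors' own comparison table (fold changes, p-values and log2 CPM) was not used.

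Of 40757 entries 276 repeated a gene and were removed. Counts were tested with edgeR 4.0.16 in R 4.3.3 (filterByExpr, TMM factors of 0.9788 to 1.018, glmQLFit with robust estimation, glmQLFTest) over 14778 genes, with Benjamini-Hochberg adjustment (FDR). The standard error (SE) is that of the log2 fold change. CPM used TMM-scaled totals, and FPKM divided CPM by the exonic length in GENCODE M21. Replicates differed by more than counting noise in every pair (chi-square per gene 10.4 to 31.9). Floors of 3 counts cover counting error only. Whether replicate numbers pair the samples is not known, and the main test did not use them. The script was tested on simulated counts.

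The members, classes and gene lists were chosen with earlier results of these data known. All members are accounted for; each library is given for the largest and the smallest change in each complex, the called constitutive genes and Cenpa, and for Cenpb, Nde1 and Scd2. Promoters were taken from RefSeq (GRCm38.p6). By the rule for promoters Cenpo's would also be printed, but its RefSeq start lies 329 bases inside the GENCODE gene, and its sequence is not shown. A further promoter site and 1 further gene's values are not reported here. Alternatives were RLE and upper-quartile factors, DESeq2 1.42.0, limma 3.58.1 with voom (also with quality weights), other filters, halved counts, a stricter FDR of 0.01, a replicate block, other classes and each library left out.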

Additional observations from a re-analysis of the deposited data

How the results depend on the processing

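All 16 G2/M-periodic genes were called with every library left out in turn and under every other alternative that tested them. The filter of at least 10 counts in every library did not test Cenpf, Ska1 and Ttk. Plk1 and Birc5 were tested and called throughout. With each library left out, 24 to 28 members, 4 to 8 constitutive centromere genes, 4 to 5 others, 10 to 13 other kinetochore genes and 1440 to 2567 of all genes were called, and the medians were 0.88 to 1.07 (constitutive) and 1.36 to 1.60 (G2/M-periodic). The constitutive count of 4 was without wild-type replicate 2, and the counts over all genes fell to 1490 without wild-type replicate 2 and 1440 without Scd2-m/-m replicate 2. Scd2 ranged from -0.83 to -0.48, and was -0.62 with limma-voom and -0.82 with quality weights, both called. Quality weights called 35 members, 9 of the others and 4507 of all genes, and 5 of these members fell (Cenpb, Cenpt, Mis12, Bub3 and Mad1l1). Cenpb was also called lower with DESeq2 and with no filter, Mad1l1 with RLE factors. At an FDR of 0.01, 4 constitutive genes and 1331 of all genes were called. With at least 10 counts in every library, Cenpf, Ska1, Ttk, Spc24, Cenpm and Cenpp dropped out. Of the 35 members then tested 21 were called, 13 of them G2/M-periodic, beside 2501 of all 13530 genes tested. The constitutive median was 0.60, without Cenpm and Cenpp. The sign changed for Zw10 (0.00202 with quality weights, 0.00416 without Scd2-m/-m replicate 1) and Cenpo (0.0528 without wild-type replicate 3, 0.000693 without Scd2-m/-m replicate 2), whose lowest values with a library left out were -0.0592 and -0.059. With a replicate block 28 members, 16 G2/M-periodic, 8 constitutive and 2974 of all genes were called, Cenpb (-0.19) being the member gained. Same-numbered samples correlated at 0.053, -0.0196 and 0.0398, and the best partner was the same-numbered one for wild-type replicates 1 and 3 but not 2. With so few libraries this cannot settle whether the numbers pair the samples. Of 609 values of single members under the alternatives, 577 kept direction and call, 18 gained a call and 10 lost it. At 0.161 to 0.374 CPM, the wild-type level of Cenpf, a library held 8 to 19 counts, which limits the precision of the largest fold changes.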
